A study of Mus musculus with 13 samples.

Results

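A set of 7 ion channel genes of skeletal muscle was followed through 3 treatment groups, comprising the sodium channel genes Scn4a, Scn4b and Scn3b, the chloride channel gene Clcn1, and the potassium channel genes Kcnj2, Kcnj11 and Kcng4. They are 7 of the 21868 genes in the normalized counts table, picked by name because their levels in these same mice had drawn attention, so their own values are given as descriptions without a test. RNA was sequenced from the gastrocnemius, a calf muscle, of 13 male mice that were 7 weeks old at the start, named C57BL/6 in the labels and C57BL/6N in the study's own account of the sequencing. All of them had been made obese with a diet of 60 kcal% fat for 15 to 17 weeks and were then moved to standard chow. For the next 3 weeks, 5 mice received phosphate-buffered saline as vehicle with placebo, 5 received semaglutide, an agonist of the GLP-1 receptor, at 30 nM/kg/day by intraperitoneal injection, also with placebo, and 3 received semaglutide while drinking water that held 0.114 g/mL of a ketone ester. There was no lean group and no group on ketone ester alone, and the vehicle-treated mice had the same diet change as the others.

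A muscle action potential is carried by the channel that Scn4a encodes, Nav1.4, whose gating and placement are modified by small β subunits such as those of Scn4b and Scn3b. The fibre membrane is kept quiet between impulses by the chloride conductance of ClC-1 (Clcn1) and by the inward rectifier Kir2.1 (Kcnj2). Kir6.2 (Kcnj11) forms the pore of the ATP-sensitive potassium channel, which ties membrane potential to the energy state of the fibre. Kv6.4, the product of Kcng4, is an electrically silent subunit that makes functional channels only together with other voltage-gated potassium channel subunits.

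Between 15319471 and 23498162 reads were counted on genes per mouse, with a median of 16501686. The 8 muscle fibre genes were abundant in every group, with sums of 1415000 to 1670100 normalized counts under vehicle, 1056400 to 1636400 under semaglutide and 1743000 to 2003300 with ketone ester, while the 7 neuron markers summed to between 0 and 8.66 normalized counts per mouse. Semaglutide mouse 13 stood apart from its group. Its score on the first principal component, which held 38.1% of the variance, was -9.12, against 31.8 to 52.5 in the other semaglutide-treated mice. Vehicle-treated mice scored -24.49 to -12.85 and mice with ketone ester -25.64 to -15.82, so mouse 13 lay nearer to both other groups than to its own. Results are therefore also given without this mouse, which leaves out the semaglutide-treated mouse most like the other groups on this component. In whole muscle, fewer cells of a type and less RNA per cell cannot be told apart. All mice belong to the 1 batch that the labels give.

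In windows around the RefSeq start of the channel genes, 4 short letter patterns were looked for on both strands. The windows printed are those of Kcng4 and Scn4b, which were lower under semaglutide, and of Clcn1, whose matches are a result of this same search. RefSeq gave a window of 250 bases before to 50 bases after the start for 5 of the 7 genes, on GRCm38.p6. The patterns were the E-box CANNTG, bound by myogenic factors such as MyoD, the MEF2 site, and the letters GTAAACA and TCAAGGTCA, which are bound by forkhead and estrogen-related receptors. Capitals mark matches to these patterns. The Kcng4 window lies at chr8:119635631-119635930 on the minus strand, the Scn4b window at chr9:45138374-45138673 on the plus strand and the Clcn1 window at chr6:42286435-42286734 on the plus strand, each written in the direction of its gene.
Kcng4: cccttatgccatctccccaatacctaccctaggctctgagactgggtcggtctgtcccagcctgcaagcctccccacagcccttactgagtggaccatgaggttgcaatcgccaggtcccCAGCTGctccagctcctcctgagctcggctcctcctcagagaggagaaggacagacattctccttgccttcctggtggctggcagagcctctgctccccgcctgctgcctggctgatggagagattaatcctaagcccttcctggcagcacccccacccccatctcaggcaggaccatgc
Scn4b: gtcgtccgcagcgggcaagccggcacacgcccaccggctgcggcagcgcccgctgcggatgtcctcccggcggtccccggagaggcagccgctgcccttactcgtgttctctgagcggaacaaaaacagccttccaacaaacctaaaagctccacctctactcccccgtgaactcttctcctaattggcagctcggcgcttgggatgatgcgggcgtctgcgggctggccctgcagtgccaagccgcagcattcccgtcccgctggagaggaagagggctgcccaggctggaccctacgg
Clcn1: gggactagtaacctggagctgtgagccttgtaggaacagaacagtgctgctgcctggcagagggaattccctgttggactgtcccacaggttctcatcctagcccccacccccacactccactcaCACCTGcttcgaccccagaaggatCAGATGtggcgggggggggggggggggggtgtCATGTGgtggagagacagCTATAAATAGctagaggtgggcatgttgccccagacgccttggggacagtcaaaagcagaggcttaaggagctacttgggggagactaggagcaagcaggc
Kcng4 held a single E-box at position -130 from the start, and Scn4b held none of the 4 patterns. Clcn1 held 3 E-boxes, at -125, -101 and -69, and a MEF2-type match at -51. Kcnj2 held 2 E-boxes, at -206 and -84, and the Scn4a window none of the 4 patterns. The starts that RefSeq gives for Scn4a and Scn4b lie inside the gene bounds of the GENCODE annotation given with each gene, so these windows are not upstream of the whole gene. An E-box is present in 72.1% of all 27025 such windows, a MEF2-type match in 3.26%, GTAAACA in 3.55% and TCAAGGTCA in 0.407%. The E-box therefore sets no window apart, and of the 5 windows only that of Clcn1 held one of the scarcer patterns. A match of letters is a description and does not show that a factor binds there.

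Per kilobase of merged exons, the vehicle-treated mice had 1704 normalized counts of Scn4b, 1617 of Scn4a, 1144 of Clcn1, 972 of Kcnj11, 248 of Kcnj2, 156 of Kcng4 and 8.92 of Scn3b. Scn4b, Scn4a, Clcn1 and Kcnj11 thus made up most of the channel transcripts, and Scn3b was the scarcest by a wide margin. Under semaglutide the order was Scn4a at 1399, Kcnj11 at 1066, Scn4b at 1024, Clcn1 at 1020, Kcnj2 at 262, Scn3b at 34.5 and Kcng4 at 23.1 normalized counts per kilobase. Scn3b and Kcng4 had exchanged places at the bottom of the list, and Scn4b, at the top in vehicle-treated mice, stood alongside Kcnj11 and Clcn1. With ketone ester added, the order was again that of the vehicle-treated mice, from Scn4b at 1835 and Scn4a at 1506 down to Kcng4 at 175 and Scn3b at 7.49 normalized counts per kilobase.

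**Figure D1:**
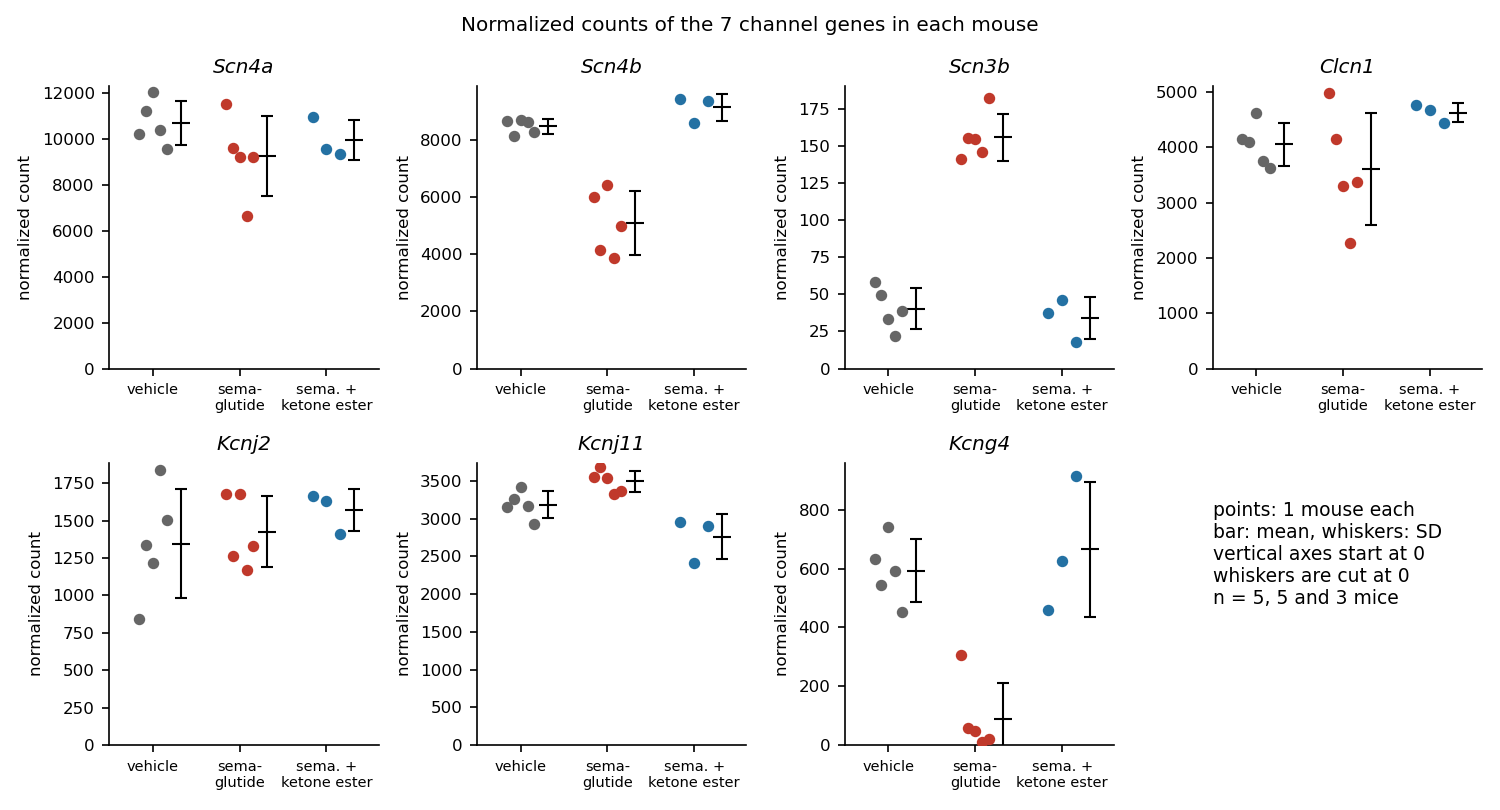
Normalized counts of the 7 channel genes, 1 point per mouse, with the mean and SD of each group (n = 5 vehicle, 5 semaglutide and 3 semaglutide + ketone ester mice). The semaglutide-treated mice lie apart from both other groups in Scn4b, Scn3b and Kcng4, with Kcng4 at 8.74 to 306 under semaglutide and at 452 or more in every other mouse, whereas the groups overlap in Scn4a, Clcn1 and Kcnj2.

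Scn4a, the pore-forming sodium channel gene of adult muscle, lies on chromosome 11 (GRCm38, 106318592 to 106353288, minus strand). Its normalized counts were 10215, 11201, 12015, 10377 and 9532 in vehicle mice 1 to 5, 11514, 9590, 9195, 6649 and 9201 in semaglutide mice 13 to 17, and 10943, 9532 and 9342 in semaglutide + ketone ester mice 19, 21 and 22. The 3 groups overlapped, and the lowest of all 13 mice was semaglutide mouse 16. Group means were 10668 ± 959 (SD, n = 5), 9230 ± 1733 (SD, n = 5) and 9939 ± 875 (SD, n = 3). The log2 fold change was -0.23 (SE 0.13) for semaglutide against vehicle and moved between -0.31 (SE 0.12) without mouse 13 and -0.11 without mouse 16.

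Scn4b encodes the β4 subunit, which is joined to the sodium channel by a disulfide bond. It lies on chromosome 9 (45138395 to 45154152, plus strand). Vehicle-treated mice had 8685, 8130, 8714, 8633 and 8283 normalized counts, semaglutide-treated mice 6021, 4167, 6444, 3880 and 4998, and semaglutide + ketone ester-treated mice 9441, 8605 and 9382. Every semaglutide-treated mouse lay below every mouse of both other groups, and the vehicle-treated mice were close to one another, with a coefficient of variation of 3.12% against 22.0% under semaglutide. The mean was 5102 ± 1120 (SD, n = 5) under semaglutide against 8489 ± 265 (SD, n = 5) for vehicle, which is 1.66-fold lower, with a log2 fold change of -0.76 (SE 0.13). With ketone ester it was 9143 ± 466 (SD, n = 3), 1.79-fold higher than under semaglutide, at a log2 fold change of 0.87 (SE 0.15). Leaving out any 1 of the 13 mice kept the first of these between -0.85 and -0.67 and the second between 0.78 and 0.96.

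Scn3b, the gene of the non-covalently bound β3 subunit, was scarce in vehicle-treated muscle. It lies on chromosome 9 (40269217 to 40291618, plus strand), and a minus-strand transcript, Gm47266, overlaps it. The counts were 58.4, 49.4, 33.4, 22.2 and 38.4 in vehicle-treated mice, 141, 156, 154, 146 and 182 in semaglutide-treated mice, and 37.7, 45.9 and 18.03 in semaglutide + ketone ester-treated mice. All 5 semaglutide-treated mice, mouse 13 included, lay above all 8 others, and they were the more uniform group, at 156 ± 15.8 (SD, n = 5). The mean was 3.86-fold that of vehicle-treated mice (40.3 ± 14.0, SD, n = 5), with a log2 fold change of 1.99 (SE 0.27), and was 4.60-fold lower with ketone ester (33.9 ± 14.3, SD, n = 3), with a log2 fold change of -2.26 (SE 0.31). These values rest on 15 to 51 reads per mouse in the 8 other mice and on 138 to 244 reads in the semaglutide-treated mice.

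The ratios of the sodium channel subunit transcripts follow from the values above, on which these genes were chosen, and are not separate evidence. Relative to Scn4a in the same mouse, Scn4b stood at 72.5% to 86.9% under vehicle, 43.5% to 70.1% under semaglutide and 86.3% to 100% with ketone ester. The ranges of the semaglutide and vehicle mice did not meet, and mouse 13, at 52.3%, lay within its own group. Relative to Scn4b, Scn3b went from 0.257% to 0.672% under vehicle to between 2.35% and 3.75% under semaglutide, and from 0.192% to 0.533% with ketone ester. These ratios are not corrected for transcript length, so only their differences between groups can be read.

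**Figure D2:**
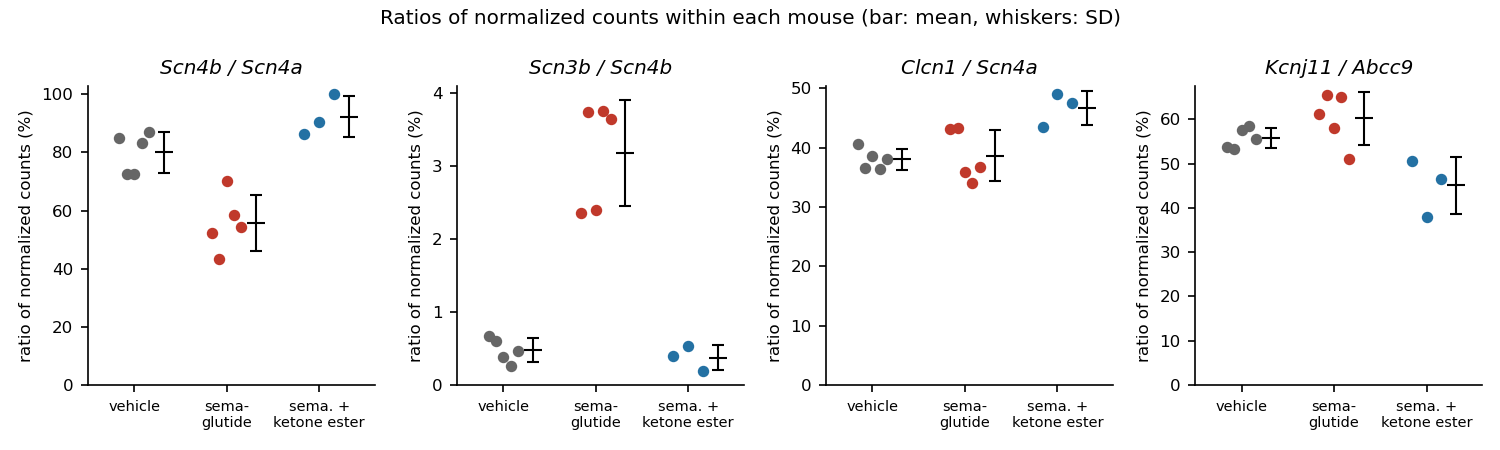
Ratios of normalized counts within each mouse, in percent, for Scn4b to Scn4a, Scn3b to Scn4b, Clcn1 to Scn4a and Kcnj11 to Abcc9; points are mice, bars the group mean and whiskers the SD. The 5 semaglutide-treated mice lie below both other groups for Scn4b to Scn4a and above them for Scn3b to Scn4b, while for Clcn1 to Scn4a and Kcnj11 to Abcc9 they overlap vehicle.

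Clcn1, the ClC-1 chloride channel gene, lies on chromosome 6 (42286685 to 42315756, plus strand), where Fam131b overlaps it on the minus strand. Its counts were 4145, 4103, 4629, 3762 and 3631 under vehicle, 4976, 4149, 3305, 2264 and 3379 under semaglutide, and 4765, 4676 and 4438 with ketone ester. The semaglutide-treated mice spanned a 2.20-fold range that enclosed all 8 other mice, with mouse 13 the highest and mouse 16 the lowest of the 13. The log2 fold change was -0.21 (SE 0.17) for semaglutide against vehicle and 0.40 (SE 0.20) for semaglutide + ketone ester against semaglutide, which became -0.34 (SE 0.15) and 0.53 (SE 0.17) without mouse 13 but -0.05 and 0.25 without mouse 16. Its ratio to Scn4a overlapped between vehicle and semaglutide, at 36.3% to 40.6% and 34.0% to 43.3%, and was higher in the 3 mice with ketone ester, at 43.5% to 49.1%.

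Kcnj2, which encodes the inward rectifier Kir2.1, lies on chromosome 11 (111066164 to 111076821, plus strand). It measured 843, 1335, 1215, 1839 and 1504 under vehicle, 1678, 1263, 1677, 1173 and 1332 under semaglutide, and 1666, 1633 and 1411 with ketone ester. All 3 groups overlapped, and both the lowest and the highest mouse were vehicle-treated. The log2 fold changes were 0.11 (SE 0.18) for semaglutide against vehicle, 0.15 (SE 0.21) for semaglutide + ketone ester against semaglutide and 0.26 (SE 0.21) for semaglutide + ketone ester against vehicle. The first of them is -0.05 without vehicle mouse 1. The second is -0.085 with the mice scaled to equal totals, which is 0.15 above the median of all genes on that scale.

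Kcnj11, the Kir6.2 pore gene, lies on chromosome 7 (46093953 to 46100764, minus strand), next to Abcc8, the gene of the SUR1 sulfonylurea receptor (46104523 to 46180033, minus strand). Its counts were 3156, 3255, 3419, 3166 and 2935 under vehicle, 3551, 3682, 3537, 3333 and 3372 under semaglutide, and 2957, 2416 and 2908 with ketone ester. The mice with ketone ester lay below all 5 semaglutide-treated mice, while vehicle overlapped both groups. Means were 3186 ± 176 (SD, n = 5), 3495 ± 143 (SD, n = 5) and 2761 ± 299 (SD, n = 3). The log2 fold change was 0.13 (SE 0.08) for semaglutide against vehicle. Between semaglutide + ketone ester and semaglutide it was -0.35 (SE 0.09), small beside those of Scn3b and Kcng4. Without mouse 21, the lowest of its group, the latter was -0.25.

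Kcng4, the silent Kv6.4 subunit, lies on chromosome 8 (119623854 to 119635680, minus strand) and had the widest span of the 7 genes, 104.5-fold between its lowest and highest mouse. Vehicle-treated mice had 633, 543, 741, 593 and 452 normalized counts, semaglutide-treated mice 306, 56.3, 48.9, 8.74 and 20.9, and semaglutide + ketone ester-treated mice 459, 627 and 913. Each semaglutide-treated mouse lay below all 8 others, but mouse 13 was far above the rest of its group. Vehicle averaged 592 ± 107 (SD, n = 5). Semaglutide averaged 88.1 ± 123 (SD, n = 5), or 33.7 ± 22.6 (SD) over the 4 mice without mouse 13. With ketone ester it was 666 ± 230 (SD, n = 3). The log2 fold change was -3.70 (SE 0.69) for semaglutide against vehicle and 3.83 (SE 0.79) for semaglutide + ketone ester against semaglutide, and -4.39 (SE 0.45) and 4.52 (SE 0.51) without mouse 13. In reads these are 9 to 316 per mouse under semaglutide and 378 to 760 in the other mice.

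**Figure D3:**
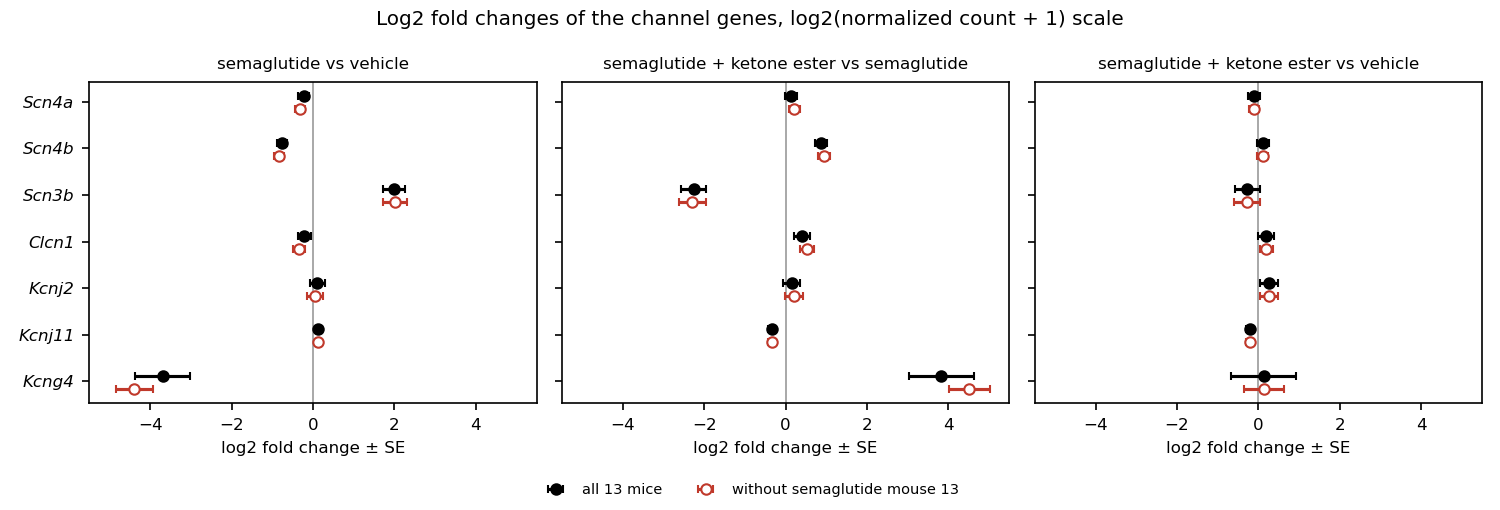
Log2 fold changes ± SE of the 7 channel genes from the limma model on log2(normalized count + 1), for the 3 pairs of groups, with all 13 mice (filled) and without semaglutide mouse 13 (open). Kcng4 and Scn3b lie farthest from 0 in the first 2 panels, in opposite directions, and no gene in the third panel lies beyond -0.27 to 0.26.

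For semaglutide against vehicle, 3 of the 7 genes had an adjusted p under 0.05 in limma (Scn4b, Scn3b and Kcng4), where 25.1% of the 12303 genes tested did, and the same 3 genes had groups that did not overlap, as 14.7% of genes did. For semaglutide + ketone ester against semaglutide these counts were 4 and 4 (Kcnj11 in addition), beside 18.4% and 20.1% of all genes, and for semaglutide + ketone ester against vehicle they were 0 and 0, beside 0.236% and 11.3%. Because the genes were chosen on these values, nothing is read from the counts. The median log2 fold change of the 7 genes was -0.21, 0.15 and 0.11 in the 3 pairs, while over all genes tested it lay within 0.01 of 0. Single mice moved it, to -0.05 and 0.086 in the first 2 pairs without semaglutide mouse 16 and to 0.04 in the third without vehicle mouse 5. The first and second pairs share the 5 semaglutide-treated mice and so are not separate evidence of opposite movement. Among the semaglutide-treated mice, mouse 16 was the lowest in 6 of the 7 genes, all but Scn3b, and mouse 13 the highest in 4, Scn4a, Clcn1, Kcnj2 and Kcng4.

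The other genes of these families, 141 in the panel of channels, pumps and partners, show how far the neighbours of the 7 went along. The mean normalized count over the 13 mice reached 10, the minimum for a test, in 66 of them, as it did in all 7 channel genes. In semaglutide-treated mice 4 of these 66 were higher and 11 lower than in vehicle-treated mice (limma, adjusted p under 0.05), which is 22.7% where 25.1% of all genes passed, 11.9% higher and 13.2% lower. With the 7 genes counted too, 18 of 73 passed, 5 higher and 13 lower. After the mice were scaled to equal totals 16 were higher and 9 lower, where 34.1% of all genes passed. The split by direction thus depends on scaling. Without mouse 13 the number was 31, in a fit where 36.1% of all genes passed. A further criterion was a 1-way analysis of variance with an unadjusted p under 0.05 and a 1.5-fold span of group means. By it 16 of the 66 genes (and 3 of the 7 channel genes) were altered. This is a larger share than the 16.1% of all genes, and the difference was not tested. It depends on the fold chosen: with a 1.2-fold span 24 of the 66 were altered, where 34.5% of all genes were.

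Among the 5 other inward rectifiers and sulfonylurea receptors tested, Abcc8 alone passed for semaglutide against vehicle (20%, beside 25.1% of all genes). SUR1, its product, is the receptor of the pancreatic ATP-sensitive channel, whereas that of muscle is SUR2 (Abcc9). Abcc8 rose from 66.8 ± 11.4 (SD, n = 5) to 188 ± 72.2 (SD, n = 5) normalized counts under semaglutide (log2 fold change 1.39, SE 0.26, limma adjusted p = 0.0034), and mouse 13 was the lowest semaglutide-treated mouse at 81.2. Abcc9 was level, with means of 5721, 5848 and 6139 and a log2 fold change of 0.03 (SE 0.08) for semaglutide against vehicle. Kcnj11 was 51.1% to 65.5% of Abcc9 under semaglutide, 53.3% to 58.6% under vehicle and 38.0% to 50.7% with ketone ester, where all 3 mice lay below the other 10.

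Of 17 other voltage-gated potassium channel subunits tested, Kcnc4 (Kv3.4) rose and Kcnq5 and Kcna7 fell under semaglutide (17.6%, beside 25.1% of all genes). Kcnq5 went from 336 ± 44.2 (SD, n = 5) to 138 ± 15.6 (SD, n = 5), a log2 fold change of -1.28 (SE 0.12, limma adjusted p = 9.4e-05), the groups being well apart. Kcnc4 went from 891 ± 120 (SD, n = 5) to 1463 ± 394 (SD, n = 5), with a log2 fold change of 0.69 (SE 0.16, limma adjusted p = 0.0098). Among 10 calcium-activated and two-pore channels, Kcnma1 and Kcnn2 passed as lower (20%) and none passed as higher. Kcnn2, an SK channel, was at 43.7 ± 13.8 (SD, n = 5) and 22.3 ± 12.5 (SD, n = 5), and its call (limma adjusted p = 0.046) held in only 2 of the 13 fits that leave out a mouse. Kcnn3, the SK3 channel known to appear in denervated muscle, had means of 40.6, 42.7 and 45.5 normalized counts and a log2 fold change of 0.01 (SE 0.30) for semaglutide against vehicle.

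Of 7 other CLC genes, Clcn6, a late endosomal exchanger, rose under semaglutide (144 ± 6.88 to 194 ± 23.6, SD, n = 5 each, log2 fold change 0.42, SE 0.10, limma adjusted p = 0.011), and Clcn4 and Ostm1, the β subunit of the lysosomal ClC-7, fell. These calls made up 42.9% of the 7, beside 25.1% of all genes. In the sodium-potassium pump, which restores the gradients these channels use, 2 of 11 genes (18.2%) passed as lower and none as higher. Atp1b1 went from 2986 ± 786 (SD, n = 5) to 1534 ± 680 (SD, n = 5), a log2 fold change of -1.003 (SE 0.27, limma adjusted p = 0.018), and the pump regulator Fxyd6 from 1332 ± 435 (SD, n = 5) to 460 ± 116 (SD, n = 5), a log2 fold change of -1.50 (SE 0.23, limma adjusted p = 0.0011).

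Of 11 sodium channel partners tested, Ank3 rose while Ank2 and Fgf11 fell under semaglutide (27.3%, beside 25.1% of all genes). The products of both ankyrin genes hold membrane channels on the spectrin skeleton, ankyrin-G (Ank3) being the one that binds voltage-gated sodium channels at nodes and endplates. Ank3 went from 2117 ± 84.0 (SD, n = 5) to 3886 ± 706 (SD, n = 5), a log2 fold change of 0.86 (SE 0.12, limma adjusted p = 0.00082), and Ank2 from 1466 ± 311 (SD, n = 5) to 573 ± 106 (SD, n = 5), a log2 fold change of -1.35 (SE 0.15, limma adjusted p = 0.00020). In neither gene did the semaglutide and vehicle mice overlap.

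**Figure D4:**
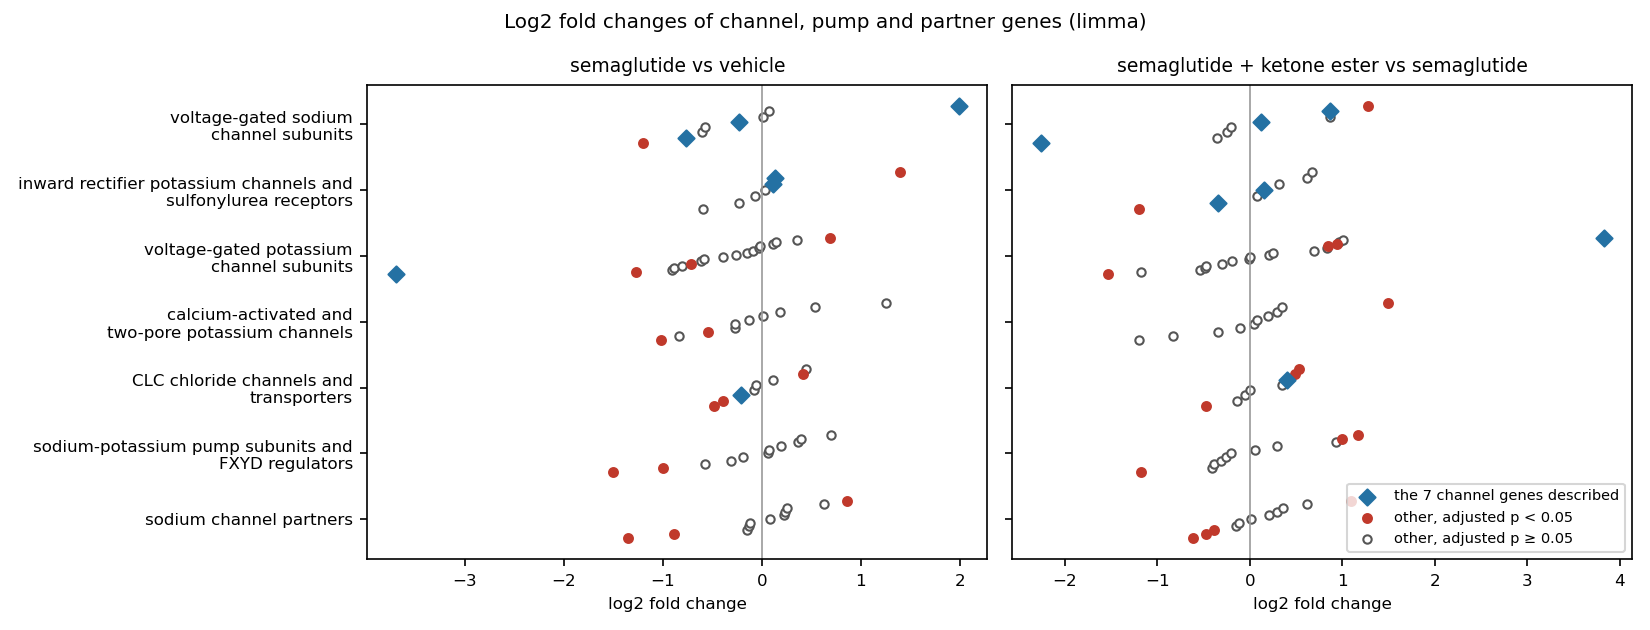
Log2 fold changes of every tested gene of the 7 channel, pump and partner families, 1 marker per gene, for semaglutide against vehicle and for semaglutide + ketone ester against semaglutide (diamonds, the 7 channel genes; filled circles, other genes with a limma adjusted p under 0.05; open circles, the rest). Kcng4 and Scn3b lie outside the range of the other genes of their families in both panels, at -3.70 and 1.99 in the left panel.

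With ketone ester added to semaglutide, 9 of the 66 other panel genes were higher and 7 lower than under semaglutide alone (limma, adjusted p under 0.05), 24.2% beside 18.4% of all genes (9.09% higher, 9.3% lower). With the 7 genes the count was 20 of 73, 11 higher and 9 lower. At equal totals 8 were higher and 16 lower, where 34.1% of all genes passed. The count was 33 without semaglutide mouse 13, 13, 9 and 10 without mice 19, 21 and 22 of the ketone ester group in turn, and 6 when only these groups were in the model. The share of all genes that passed was 32.1%, 13.8%, 7.91%, 7.01% and 6.1% in these fits in turn. Among the largest rises were those of Kcnn2 (log2 fold change 1.49, SE 0.39, limma adjusted p = 0.022), Fxyd6 (1.18, SE 0.27, adjusted p = 0.011), Ank2 (1.09, SE 0.17, adjusted p = 0.0026), Atp1b1 (1.00, SE 0.31, adjusted p = 0.040) and Kcnq5 (0.94, SE 0.14, adjusted p = 0.0022). The largest falls were those of Kcnv2, a silent subunit like Kcng4 (-1.53, SE 0.44, limma adjusted p = 0.032), Abcc8 (-1.20, SE 0.30, adjusted p = 0.019), Fxyd7 (-1.18, SE 0.29, adjusted p = 0.016), Ank3 (-0.61, SE 0.14, adjusted p = 0.014), Clcn6 (-0.47, SE 0.12, adjusted p = 0.017) and the ubiquitin ligase gene Nedd4l (-0.47, SE 0.14, adjusted p = 0.035). Ank2 and Kcnq5 passed in all 13 fits that leave out a mouse, whereas Atp1b1 and Kcnv2 passed in 6 and Nedd4l in 8. Kcnv2 was scarce, at 2.42 to 6.01 normalized counts with ketone ester and 4.84 to 23.3 under semaglutide, and these ranges overlapped.

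Between semaglutide + ketone ester and vehicle, 0 of the 73 panel genes passed in limma. An unadjusted p under 0.05 was found for 12 of the 73, a larger share than the 10.5% of all genes, and the difference was not tested. edgeR called 0 of them and DESeq2 called 3, where 0.366% and 1.4% of all genes passed. For the 7 genes the log2 fold changes ran from -0.27 (SE 0.31) for Scn3b to 0.26 (SE 0.21) for Kcnj2, and every range overlapped that of vehicle. The log2 fold change of Kcng4 was 0.13 with an SE of 0.79, which was 0.49 without semaglutide mouse 13, a mouse of neither group, since all 3 groups share the estimate of the spread.

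Genes of other kinds moved in the same mice, and their part in the channel results was not tested. Of 13 genes known to respond to denervation, 11 were tested and 3 (27.3%, beside 25.1% of all genes) were called under semaglutide, all higher, the acetylcholine receptor genes Chrna1 and Chrnb1 and the transcription factor gene Runx1, while Myog had means of 53.4, 78.8 and 81.0 normalized counts (log2 fold change 0.60, SE 0.29, limma adjusted p = 0.15 for semaglutide against vehicle). The fetal receptor subunit gene Chrng had at most 4 reads in any mouse. With ketone ester added, 2 genes of this list were higher than under semaglutide (Myh3 and Myh8) and 2 lower (Chrnb1 and Musk), 36.4% of the 11 beside 18.4% of all genes. The summed level of this list was 6238 to 7649 under vehicle, 5914 to 8247 under semaglutide and 7820 to 8445 with ketone ester. Of the 8 muscle fibre genes, 3 were lower under semaglutide (37.5%), Acta1, Casq1 and Mb, the myoglobin gene, with means of 40148 ± 10215 (SD, n = 5) for vehicle and 9069 ± 2784 (SD, n = 5) for semaglutide (log2 fold change -2.15, SE 0.23, limma adjusted p = 0.00016), and 4 were higher when ketone ester was added (50%, beside 18.4% of all genes). The 9 fast fibre genes summed to between 2482700 and 3041300 under vehicle, 1772100 and 2973200 under semaglutide and 3178600 and 3654300 with ketone ester, with 3 lower and 1 higher under semaglutide (44.4%) and 6 higher and 1 lower when ketone ester was added (77.8%). Fibroblast genes fell in 6 of 7 cases (85.7%) under semaglutide, from sums of 6202 to 14830 to sums of 5092 to 7257, and 4 of 7 smooth muscle and pericyte genes fell (57.1%), while in this pair 0 of 7 genes passed in limma in each of the Schwann cell, adipocyte, endothelial and macrophage lists, where 0, 1, 2 and 0 genes had an unadjusted p under 0.05. With ketone ester added, 5 of 7 fibroblast genes (71.4%), 2 of 7 smooth muscle and pericyte genes and 2 of 7 endothelial genes (28.6% each) were higher than under semaglutide, and 0 of 7 in the macrophage, adipocyte and Schwann cell lists, where 0 genes had an unadjusted p under 0.05. Of 5 red blood cell genes tested, 0 passed in limma under semaglutide, where 5 had an unadjusted p under 0.05, and 4 (80%) were higher with ketone ester added. Red blood cell genes summed to 1356 to 2291 under vehicle, 50.5 to 3152 under semaglutide, with mouse 13 the highest, and 2849 to 5558 with ketone ester.

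The genes whose pattern over the 13 mice was nearest to each channel gene, by the root mean square difference of centred log2 values, were Hif1an (0.05) and Sap18 (0.06) for Scn4a, Higd2a (0.12) and Adk (0.14) for Scn4b, and Rhpn2 (0.39) and Stc2 (0.41) for Scn3b. For Clcn1 they were Lbx1 (0.08) and Ss18l2 (0.09), for Kcnj2 Thsd7a (0.18) and Ythdc2 (0.19), and for Kcnj11 Zfp236 (0.07) and N4bp1 (0.07). For Kcng4 they were Dupd1 (0.38), a dual-specificity phosphatase gene, and Rmi2 (0.42). The channel genes' own root mean square variation was 2.11 for Kcng4, 1.10 for Scn3b and 0.43 for Scn4b, but 0.16 to 0.29 for the other 4, so a small distance says least for the flattest genes. Dupd1 had means of 503, 61.2 and 476 normalized counts and Stc2 means of 34.2, 135 and 32.6 in vehicle, semaglutide and semaglutide + ketone ester mice.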

How the data were processed

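RNA-seq of the gastrocnemius of 13 mice was used. The authors made stranded mRNA libraries and deposited normalized counts per gene (a scaled signal, 1 column per mouse). The submitters' processing notes name DRAGEN, DESeq2 and the mm10 build, while the counting program, the annotation and the use of strand are not given in the sources used here, so reads of overlapping antisense genes cannot be told apart. Every value was a whole multiple of 1 step per mouse (100% of values, tolerance 0.001), so whole reads were recovered. A level of 3 reads was taken as the floor. No interval for counting error is given, and the SD and SE values hold the spread between mice.

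Groups and mouse numbers came from the labels, and p-values set differences between groups against the spread between these mice. log2(normalized count + 1) of the 12303 genes with a mean of at least 10 was fitted with limma 3.58.1 (R 4.3.3), 3 groups in 1 model, Benjamini-Hochberg adjustment over all genes, threshold 0.05. This scale understates changes of low genes. On the recovered reads edgeR 4.0.16 called 3311, 2557 and 45 genes in the 3 pairs in the order of the text, and DESeq2 1.42.0 called 3577, 2935 and 172. Alternatives changed the pseudocount (0.5 or 8), filter (none or 50), scaling, weights, variance trend, groups in the fit, tool and mice.

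The 7 genes and all lists were chosen with earlier results of these data known. Of the other panel genes, up to 6 per direction and comparison with the largest change past the threshold were named, with Kcnn3, Chrng and Myog whatever they did, and the 2 nearest patterns per channel gene. Some genes that this rule names are not reported here. Abcc9 and the ratios within a mouse were chosen after values were seen. Positions and exon lengths are those of GENCODE vM21 (GRCm38).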

Additional observations from a re-analysis of the deposited data

Results flagged for a closer look

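In 44 groups of 5 mice (22 genes), a mouse was marked where its gap to the nearest other mouse took up most of the range of its group, which chance does in about 1 in 20 groups. This marked 4 values. Semaglutide mouse 13 had 306 normalized counts of Kcng4, against 8.74 to 56.3 in the other 4 semaglutide-treated mice. Vehicle mouse 2 had 0 normalized counts of Chrng, against 1.11 to 1.24 in the other vehicle-treated mice, which is the worth of a single read. Vehicle mouse 4 had 2008 normalized counts of Ank2, against 1247 to 1421 in the rest of its group. Semaglutide mouse 14 had 2744 of Atp1b1, against 1131 to 1327. The causes of these values were not tested.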

How the results depend on the processing

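No paired analysis was possible because the mouse numbers in the labels are not shared between groups. Of 525 alternative values of the 21 log2 fold changes of the 7 channel genes, 521 moved by less than the spread between mice, which, the genes being chosen on these values, is no support for them. In the second pair Kcng4 and Kcnj11 were under the threshold no more with 2 groups in the fit, Kcnj11 also without mouse 21, and Clcn1 came under it with sample weights and without semaglutide mouse 13. In the first pair Kcnj11 came under it with equal totals, at a log2 fold change of 0.31, which is 0.14 above the median of all genes on that scale. With equal totals the median of all genes moved to 0.17 in the first pair and -0.24 in the second, where the median of the 7 genes was -0.085 (-0.03 in the first). Scn4a and Kcnj2 were then at -0.11 and -0.085 in the second pair, which is 0.12 and 0.15 above that median. The panel counts are given here with the share of all genes that passed in brackets. The count of 18 in the first pair (25.1%) was 32 with sample weights (39.4%). It ranged from 15 (17.9% to 20.1%) to 31 (without mouse 13, 36.1%) when a mouse was left out. The count of 20 in the second (18.4%) was 6 with 2 groups in the fit (6.1%) and 33 with sample weights (34.8%). It ranged from 9 (7.91%) to 33 (32.1%) when a mouse was left out. The count of 0 in the third (0.236%) was 3 with DESeq2 (1.4%) and 2 with sample weights (1.67%). The causes were not tested. With a fold of 1.2 the analysis of variance gave 24 genes, not 16, where 34.5% of all genes passed, not 16.1%. Of 546 alternative values of the 22 largest panel log2 fold changes past the threshold, 58 lost the call and 0 reversed. Genes at a few reads, such as Chrng, are limited by depth.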

Other observations

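Satellite cell markers, which mark the stem cells of muscle, summed to 672 to 1304 normalized counts per mouse under semaglutide, 468 to 604 under vehicle and 523 to 557 with ketone ester, so that the semaglutide-treated mice lay above both other groups, with mouse 13 the lowest of the 5. The sum is mostly that of 1 of the 4 genes, Cdh15, a cadherin of satellite cells and myoblasts, with means of 406, 933 and 391 for vehicle, semaglutide and semaglutide + ketone ester. It alone passed the test of limma, with log2 fold changes of 1.15 (SE 0.19, adjusted p = 0.0018) for semaglutide against vehicle and -1.20 (SE 0.22, adjusted p = 0.0047) for ketone ester added, while the list's medians were 0.22 and 0.05. Pax7, the defining satellite cell gene, had means of 58.2, 51.0 and 53.2. Of 5 tendon genes, Tnmd, Fmod and Thbs4 were lower under semaglutide (60%, beside 25.1% of all genes). Sums were 745 to 2713 under semaglutide, 1253 to 6717 under vehicle and 3234 to 3991 with ketone ester. With ketone ester added, Tnmd was higher and Scx lower than under semaglutide (40%, beside 18.4% of all genes). The slow fibre list had 1 of 8 genes (12.5%) lower under semaglutide, Myl3, and sums from 9815 to 26882 that overlapped the 10763 to 42744 of vehicle-treated mice. Kcnj2 to Kcnj12, the ratio of the Kir2.1 and Kir2.2 transcripts, was 121% to 346% under semaglutide, 87.1% to 206% under vehicle and 157% to 180% with ketone ester, and Kcnj12 itself did not pass (log2 fold change -0.59, SE 0.30 for semaglutide against vehicle).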
